A study of Homo sapiens with 10 samples.

Results

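The H3K4me3 ChIP-seq peaks of MDAMB231 cells are the 18019 regions of the deposited H3K4me3 list, all of which were taken, out of 128837 regions in the 4 peak lists analysed here. MDAMB231 is a human breast cancer cell line of the triple-negative kind, obtained from ATCC, cultured in DMEM with 5% FBS and given no treatment. Chromatin immunoprecipitation and sequencing (ChIP-seq), which recovers DNA bound by nucleosomes that carry a given histone mark, was performed in 2 H3K4me3 samples, 2 H3K27Ac samples and 2 H3K4me1 samples with 1 ChIP input sample, and open chromatin was isolated by FAIRE, a formaldehyde-based extraction of DNA free of nucleosomes, in 2 samples with 1 input. The study used these maps to look for enhancers of breast cells. The authors analysed the replicates separately and then combined them, and only the combined list of each assay is at hand, so no replicate error can be given for any peak, and all statements below compare lists. Shares carry 95% Wilson intervals that cover counting over loci only, and neighbouring loci are not independent.

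Trimethylation of lysine 4 of histone H3 marks the nucleosomes around active and poised transcription start sites. It is laid down by the SETD1 and KMT2 enzymes, which share core subunits such as WDR5 and ASH2L, and it is removed by the KDM5 demethylases. CpG-rich promoters recruit these enzymes through CXXC domain proteins such as CXXC1, and H3K27Ac marks promoters and enhancers in use, whereas H3K4me1 without H3K4me3 is the usual mark of enhancers.

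Promoter sequence is shown first, because the share of promoters under H3K4me3 rose with their CpG content. Each line below is the 250 bases just before the canonical start of a gene on the genome build of the peak lists (GRCh37), 5′ to 3′ on the strand of the gene, with every CG dinucleotide in capitals, and neither window overlapped an annotated exon. TUBB, which encodes a beta-tubulin used in every cell, was the earliest of the constitutive genes listed here whose window met that condition (chr6:30687879-30688128, plus strand), and VIM encodes the mesenchymal filament vimentin (chr10:17269990-17270239, plus strand).
TUBB: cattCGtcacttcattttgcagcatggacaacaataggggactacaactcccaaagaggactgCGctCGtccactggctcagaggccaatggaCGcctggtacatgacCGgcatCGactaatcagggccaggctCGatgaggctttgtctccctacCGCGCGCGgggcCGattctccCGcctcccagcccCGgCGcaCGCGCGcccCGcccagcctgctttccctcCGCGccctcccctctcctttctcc
VIM: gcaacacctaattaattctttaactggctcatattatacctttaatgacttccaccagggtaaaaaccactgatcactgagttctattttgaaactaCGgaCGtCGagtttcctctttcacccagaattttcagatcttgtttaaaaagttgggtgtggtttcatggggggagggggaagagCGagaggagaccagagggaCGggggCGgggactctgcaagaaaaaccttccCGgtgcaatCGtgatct
The window of TUBB held 21 CpG sites and that of VIM 8, and both starts lay under an H3K4me3 peak. The GC box letters GGGCGG, searched on both strands, were in both windows, and CCAAT was in that of TUBB.

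H3K4me3 peaks were somewhat narrower than those of the other histone marks. Their median width was 2524 bp (quartiles 1808 and 3230 bp), with a range of 284 to 25036 bp, against medians of 2664 bp for H3K27Ac, 3041 bp for H3K4me1 and 913 bp for FAIRE. The peaks covered 47.8 Mb in all, 1.57% of chromosomes 1 to 22 and X. The gap to the next H3K4me3 peak had a median of 60200 bp and quartiles of 21400 and 155000 bp. The score of a peak is minus 10 times the log10 of its MACS p-value. The lowest score was 50.01, and 10066 peaks shared the value 3100 exactly, with 171 peaks above it and up to 3233. Since 56.8% of the list was at 3100 or more, the strongest peaks could not be ranked by score, and width is used to order peaks below. Peaks with a score under 100 made up 8.70% of the list.

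H3K4me3 lay mainly at transcription start sites. Of the 17996 peaks on named chromosomes, 13927 (77.4%, 95% Wilson interval 76.8% to 78.0%) held the start of at least 1 GENCODE transcript. The same share was 39.7% for H3K27Ac, 17.9% for H3K4me1 and 17.3% for FAIRE. A protein-coding start was inside 12588 peaks, 1144 more held only the start of a long non-coding RNA (lncRNA) gene with no protein-coding start, and 195 held only starts of other gene types. Another 363 peaks ended within 1 kb of a start and 1679 at 1 to 10 kb. The remaining 2027 peaks (11.3%, 10.8% to 11.7%) were over 10 kb from any start, a share that was 32.7% for H3K27Ac, 44.3% for H3K4me1 and 41.3% for FAIRE. Counting only transcripts of protein-coding genes, 21.7% of H3K4me3 peaks were over 10 kb from a start. Of the peaks of 2 kb or more, 1.99% were over 10 kb from a start of any gene type.

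Peaks at protein-coding starts were wider and scored higher than peaks elsewhere. Their median width was 2844 bp (quartiles 2340 and 3520 bp), and 76.6% had a score of 3100 or more. Peaks with lncRNA starts alone had a median of 2126 bp and 32.0% at that score. At 1 to 10 kb from a start the median width was 1559 bp, and over 10 kb from a start it was 1313 bp (quartiles 1080 and 1662 bp) with 3.45% at that score. The median observed over expected CpG of the peaks fell in the same order, from 0.63 at protein-coding starts to 0.354 over 10 kb away.

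**Figure D1:**
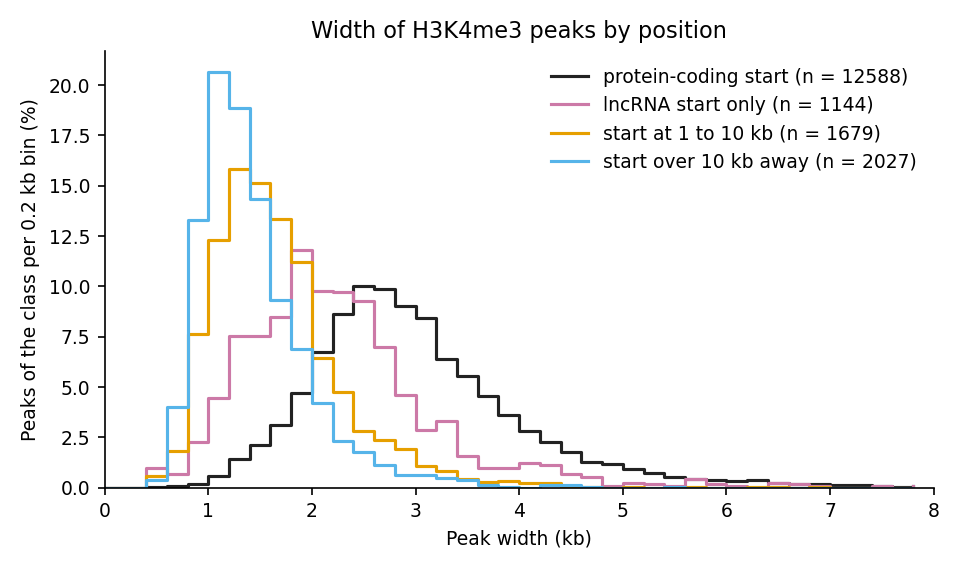
The x axis is the width of H3K4me3 peaks in kb and the y axis the percentage of each class of peaks in bins of 0.2 kb, for 4 classes of distance to a transcript start. Peaks at protein-coding starts (median 2844 bp) lie to the right of those over 10 kb from a start (median 1313 bp), with lncRNA starts between them, and peaks wider than 8 kb are not drawn.

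H3K4me3 covered the starts of most protein-coding genes. Of 20162 protein-coding genes, 13362 (66.3%, 65.6% to 66.9%) had at least 1 annotated start inside a peak, and these are called marked here. Among 18702 lncRNA genes, 4314 (23.1%, 22.5% to 23.7%) were marked. The lncRNA share depended on neighbours. Of the 4234 lncRNA genes with a start within 1 kb of a protein-coding start, 67.9% (66.5% to 69.3%) were marked, near the share of protein-coding genes, against 9.95% (9.48% to 10.5%) of the 14468 others. Processed pseudogenes were marked in 120 of 10087 cases (1.19%), microRNA genes in 209 of 3043 (6.87%) and small nucleolar RNA genes in 88 of 1458 (6.04%). Mapping quality filtering by the authors removes reads from near-identical copies, and its part in the low share of pseudogenes was not tested.

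Most marked genes carried the peak at their canonical start, the start of the transcript that GENCODE tags as representative. Only 656 of the 13362 marked protein-coding genes (4.91%) had no canonical start under a peak, and 3438 (25.7%) had every annotated start under a peak. A peak held starts of 1 protein-coding gene in 10586 cases, of 2 genes in 1842 and of 3 or more, up to 6, in 160. Of the peaks with 2 genes, 1451 held starts on both strands. Peaks with 1, 2 and 3 or more genes had median widths of 2778, 3216 and 3550 bp, and 45.8%, 60.4% and 67.5% of them touched a FAIRE peak.

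Promoter peaks extended farther into the gene than upstream of it. This was measured in the 6530 peaks that held starts of 1 protein-coding gene and of no other gene, with the canonical start inside. The median extent was 1037 bp upstream (quartiles 816 and 1307 bp) and 1628 bp downstream (quartiles 1328 and 2036 bp). The downstream side was the longer in 5617 of them (86.0%, 85.2% to 86.8%). In the 245 such peaks over 5 kb wide, the medians were 1724 bp upstream and 3996 bp downstream. FAIRE peaks that touched these H3K4me3 peaks had their centre at a median of -139 bp from the start, where negative values are upstream (quartiles -296 and 9 bp), and 68.8% of the 3357 were centred within 500 bp of it. H3K4me1 dipped at the start. It covered 7.32% of these starts, 9.01% of positions 800 bp upstream and 14.03% of positions 1600 bp downstream, where it was highest.

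**Figure D2:**
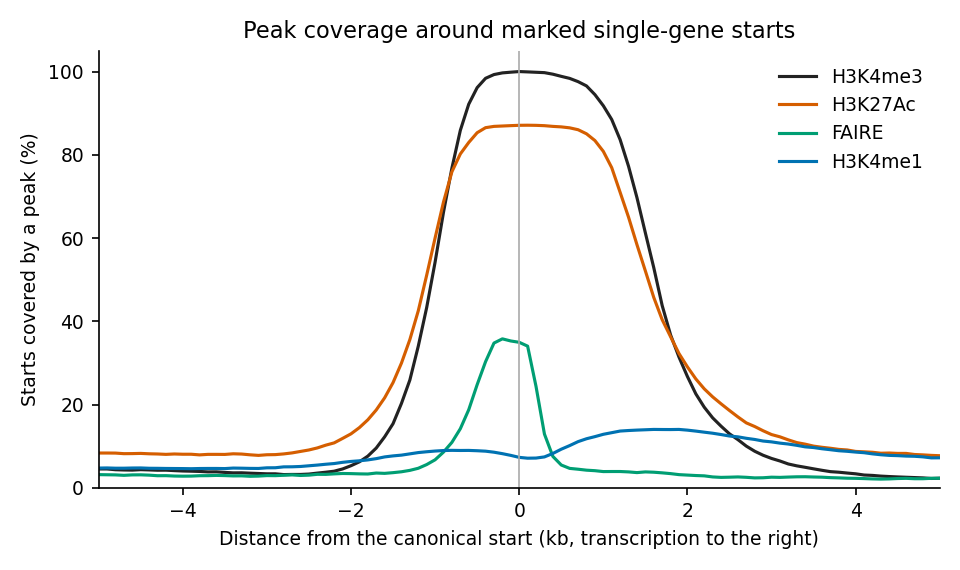
The x axis is the distance in kb from the canonical start of 6530 marked single-gene promoters, with transcription to the right, and the y axis the percentage of these promoters covered by a peak of each list at that distance. H3K4me3 is at 100% at the start because of how the promoters were chosen, H3K27Ac reaches 87.1%, FAIRE is highest at 35.8% 200 bp upstream, and H3K4me1 dips at the start and is highest at 14.03% downstream.

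The share of promoters under H3K4me3 rose with CpG content. Promoters were taken as 250 bases before to 50 bases after the canonical start of 19881 protein-coding genes. With an observed over expected CpG ratio under 0.2, 120 of 2377 canonical starts (5.05%, 4.24% to 6.003%) were under a peak. The share was 44.2% (41.8% to 46.6%) at 0.4 to 0.6, 78.0% (76.8% to 79.2%) at 0.6 to 0.8 and 91.0% (89.8% to 92.1%) at 1.0 or more. The median ratio was 0.863 for the 12706 starts under a peak and 0.309 for the 7175 others. At starts under H3K4me3, FAIRE at the start itself differed little with CpG content. A FAIRE peak covered 43.3% (34.8% to 52.3%) of marked starts in the lowest class and 40.8% (38.8% to 42.8%) in the highest, although the H3K4me3 peaks over these starts touched FAIRE in 64.2% of cases in the lowest class and 50.5% in the highest. H3K4me1 covered 43.3% (34.8% to 52.3%) of the marked starts in the lowest class and 3.45% (2.77% to 4.28%) in the highest. Peaks were wider over CpG-rich promoters, with medians of 2353 bp in the lowest class and 3200 bp in the highest.

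**Figure D3:**
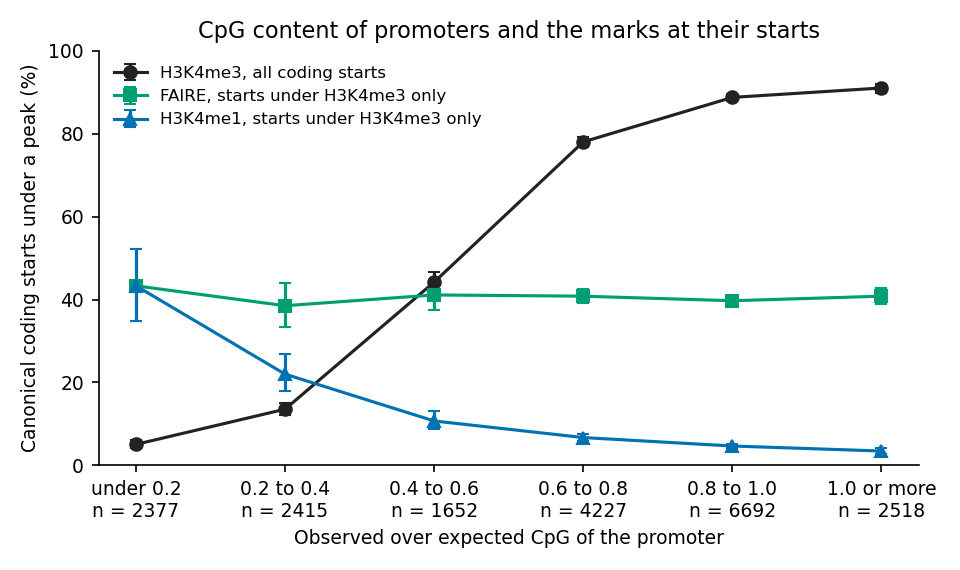
The x axis groups canonical protein-coding starts by the observed over expected CpG ratio of their promoter and the y axis is the percentage under a peak. Circles are H3K4me3 over all starts, squares FAIRE and triangles H3K4me1 over starts under H3K4me3 only, with 95% Wilson intervals. H3K4me3 rises from 5.05% to 91.0%, FAIRE stays near 40.8% and H3K4me1 falls from 43.3% to 3.45%.

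Short promoter motifs were also unevenly spread between marked and unmarked promoters. All were searched on both strands of the same 300 bases, as exact letters, with N for any base. The ETS letters CCGGAAG were in 14.1% of all promoters, 20.3% of marked ones and 3.28% of the others. The GC box letters GGGCGG were in 61.4% of all, 77.4% of marked and 33.2% of unmarked promoters, and the CRE letters TGACGTCA were in 2.68%, 3.48% and 1.27%. The ETS, GC box and CRE letters each contain a CpG, and the part of the CpG content above in their shares was not tested. TATAAA, the letters of the TATA box, counted at any position, went the other way, with 9.62% of all, 4.67% of marked and 18.4% of unmarked promoters. TGANTCA, bound by AP-1, was in 5.40% of all, 3.60% of marked and 8.59% of unmarked promoters. Median GC content was 67.0% in marked and 54.3% in unmarked promoters, and its part in the shares of TATAAA and TGANTCA was not tested. CCAAT hardly differed, at 35.9% of marked and 36.1% of unmarked promoters.

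Most H3K4me3 peaks lay with acetylation. An H3K27Ac peak shared at least 1 base with 14619 of the 18019 peaks (81.1%, 80.6% to 81.7%), a FAIRE peak with 8152 (45.2%, 44.5% to 46.0%) and an H3K4me1 peak with 4019 (22.3%, 21.7% to 22.9%). The H3K27Ac result did not rest on grazing contacts. Where an H3K27Ac peak was present it covered a median of 98.4% of the H3K4me3 peak, and 81.0% of all H3K4me3 peaks had their centre inside one. The FAIRE and H3K4me1 shares were lower by the centre, 24.2% and 13.99%. Restricted to FAIRE peaks no lower than the median of their list, the FAIRE share was 26.7%, and a MACS p of 1e-10 or less for H3K4me1 left a share of 11.7%. In the other direction, 38.5% of the 37495 H3K27Ac peaks, 21.3% of the 46552 FAIRE peaks and 15.6% of the 26771 H3K4me1 peaks touched H3K4me3. Of the H3K4me1 peaks that did, 50.6% had their centre inside the H3K4me3 peak, against 95.4% for H3K27Ac and 95.6% for FAIRE.

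The most common combination was H3K27Ac alone, on 5657 H3K4me3 peaks (31.4%), and then H3K27Ac with FAIRE, on 5083 (28.2%). All 3 other lists met on 2687 peaks (14.9%) and none on 2913 (16.2%). FAIRE without H3K27Ac was rare, on 347 peaks without H3K4me1 and 35 with it. Peaks with H3K27Ac and FAIRE had a median width of 2886 bp and held a start in 89.1% of cases. Peaks with none of the 3 had a median width of 1517 bp and a median score of 310.7, and 53.0% of them held a start.

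Wider peaks carried more. From peaks of up to 1 kb to peaks over 5 kb, the share holding a start rose from 15.5% to 98.9%, the share touching H3K27Ac from 36.2% to 98.5% and the share touching FAIRE from 25.8% (22.7% to 29.2%) to 78.6% (75.4% to 81.4%). H3K4me1 was lowest in the middle, at 17.2% of peaks of 2 to 3 kb, with 24.3% in the narrowest and 38.3% in the widest class. A wider peak also has more bases in which another peak can touch it, and the part of that in these shares was not tested.

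**Figure D4:**
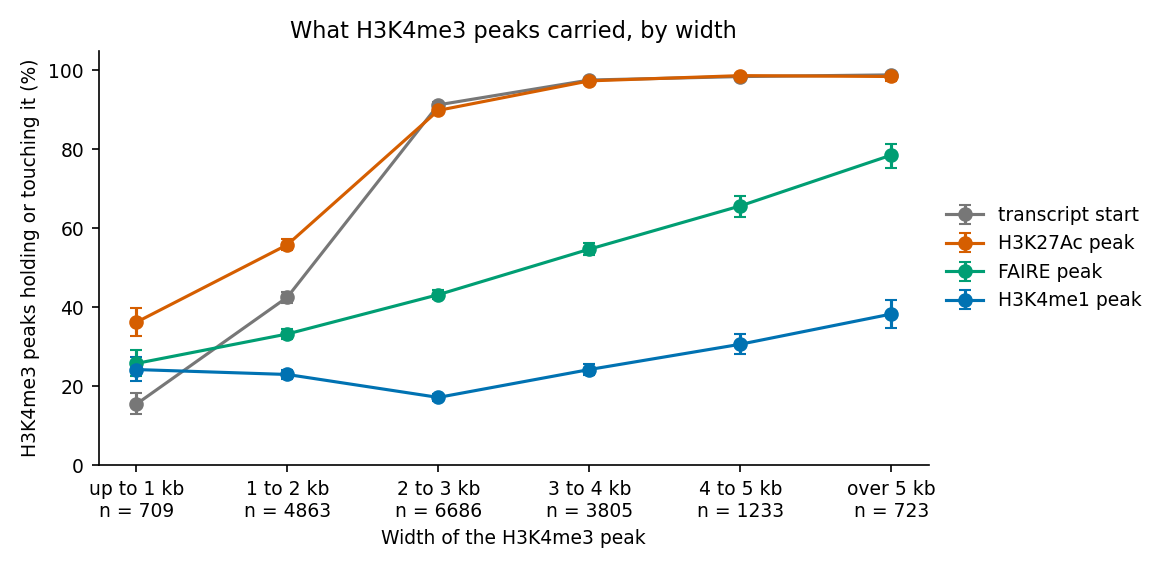
The x axis groups H3K4me3 peaks by width and the y axis is the percentage that held a transcript start or touched a peak of the other lists, with 95% Wilson intervals. Starts and H3K27Ac rise together to 98.9% and 98.5%, FAIRE rises to 78.6%, and H3K4me1 is lowest, at 17.2%, for peaks of 2 to 3 kb.

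Position and width could not be read separately from the whole list. Over all widths, H3K27Ac touched 88.6% of the peaks at protein-coding starts, 75.3% of those at lncRNA starts alone and 58.0% of those over 10 kb from a start. Among peaks of 1 to 2 kb the same 3 classes stood in another order, with 48.8% (46.3% to 51.4%) of 1505 peaks at protein-coding starts, 57.7% (53.1% to 62.1%) of 456 at lncRNA starts alone and 57.6% (54.98% to 60.1%) of 1421 over 10 kb away. FAIRE in the same width class was at 26.6%, 32.9% and 35.4%, and H3K4me1 at 13.6%, 20.2% and 28.3%. Peaks of 1 to 2 kb at protein-coding starts thus carried the other lists less often than peaks of that width class over 10 kb from a start.

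Promoter peaks without H3K27Ac were narrower and scored lower than those with it. There were 1429 of them among the 12588 peaks at protein-coding starts. Their median width was 1909 bp, against 2953 bp with H3K27Ac, and 17.8% had a score of 3100 or more, against 84.1%. FAIRE touched 11.4% (9.86% to 13.2%) of them and 53.0% (52.0% to 53.9%) of the acetylated ones, and H3K4me1 touched 4.27% and 22.7%. Their median observed over expected CpG was 0.639, against 0.629 with H3K27Ac, and their median GC content was 60.3% against 53.4%.

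The gene lists were read against the 66.3% of all protein-coding genes that were marked and the 91.0% of marked genes that also had H3K27Ac and 48.0% that had FAIRE at a start. All 12 constitutive genes were marked, all 12 with H3K27Ac and 11 with FAIRE at a start. The peak over the start of GAPDH, a glycolytic enzyme, was 6687 bp wide, that of the translation factor gene EEF1A1 9719 bp and that of HPRT1, which salvages purines, 2295 bp without FAIRE. All 14 genes for enzymes and subunits that write or erase H3K4 methylation were marked too, 13 with H3K27Ac and 5 with FAIRE. SETD1B, a methyltransferase, had a peak of 10992 bp that no H3K27Ac peak touched. The peak at KMT2D was 5185 bp wide and that at the demethylase gene KDM5B 3532 bp.

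All 12 immediate early and AP-1 genes were marked with H3K27Ac, and 8 had FAIRE at a start, where the share of all marked genes was 48.0%. FOSL1, which encodes an AP-1 subunit, lay under a peak of 17535 bp, the AP-1 subunit gene FOSL2 under 8150 bp, KLF6 under 9265 bp and MYC under 7829 bp. These widths are above the third quartile of peaks at protein-coding starts, 3520 bp, as were those of all 12 genes, of which the narrowest was EGR1 at 4440 bp. The same held for 28.97% of all marked protein-coding genes by their widest peak at a start, for 11 of 12 constitutive genes, 8 of 9 marked mesenchymal genes and 8 of 14 genes of H3K4 methylation, and for 4 of 9 marked epithelial, 3 of 11 marked luminal and 1 of 4 marked developmental genes.

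Of 12 mesenchymal genes 9 were marked, all 9 with H3K27Ac. They included VIM with 8265 bp, the receptor tyrosine kinase gene AXL with 9510 bp, the caveolin gene CAV1 with 4940 bp and the hyaluronan receptor gene CD44 with 4093 bp. TWIST1, the N-cadherin gene CDH2 and SPARC were not marked, and SPARC had H3K27Ac and H3K4me1 at a start all the same. Of 13 epithelial genes 9 were marked, but only 4 of them had H3K27Ac at a start. The splicing factor gene ESRP1 had a peak of 4506 bp and the claudin gene CLDN3 one of 2033 bp, neither touched by any other list, whereas CLDN7 (5003 bp) and CLDN4 (3715 bp) had H3K27Ac. CDH1 had no H3K4me3 peak within 19569 bp of a start, although an H3K27Ac peak and a FAIRE peak each covered a start.

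Of 12 luminal genes 11 were marked, 7 with H3K27Ac. The oestrogen receptor gene ESR1 had a peak of 1865 bp with a score of 1258 and the progesterone receptor gene PGR one of 3510 bp with a score of 399.5, and no peak of any other list touched either. FOXA1, a pioneer factor gene, had 3252 bp with FAIRE and no H3K27Ac. KRT8 and KRT18, which encode paired simple-epithelial keratins, shared 1 peak of 5023 bp with H3K27Ac and FAIRE, although the canonical start of KRT8 lay under another peak. TFF1 was the reverse case, with H3K27Ac, H3K4me1 and FAIRE at a start and no H3K4me3 peak within 128548 bp. By H3K4me3 alone, then, the mesenchymal list of this line was not set apart from the luminal one. A peak shows a mark and not expression.

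None of the 12 genes for other lineages was marked, and none had any other list at a start. They included ALB of liver, INS of pancreatic beta cells, HBB of red cells, MYOD1 of muscle and PTPRC of leukocytes. APOA1 came nearest, with an H3K4me3 peak 828 bp from a start. Of 12 developmental regulators 4 were marked. SOX2 (2535 bp) had H3K27Ac, and the heart factor genes NKX2-5 (1343 bp) and HAND1 (2073 bp) had none. PAX6 had no peak within 269741 bp, although its promoter had an observed over expected CpG of 1.06.

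Gene families, taken by symbol, ran from fully marked to unmarked around the 66.3% of all protein-coding genes. All 78 mitochondrial ribosomal protein genes and all 48 genes for NADH dehydrogenase subunits and factors were marked. So were 80 of 83 cytosolic ribosomal protein genes, 38 of 40 proteasome genes and 455 of 515 ZNF zinc finger genes. The ribosomal protein genes also had the largest share with FAIRE of these families, at a start of 75 of 83, against 32.9% of all protein-coding genes. RPL10L and RPL3L, which were not marked, and the unmarked proteasome genes PSMA8 and PSMB11 were singled out after their values were seen. RPL10L and PSMA8 are known for expression in testis, RPL3L in muscle and PSMB11 in thymus. Both EIF3C and EIF3CL, near-identical copies, were among the 7 of 56 unmarked initiation factor genes, and whether filtering on mapping quality removed their reads was not tested.

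Solute carriers were marked in 231 of 374 cases (61.8%, 56.7% to 66.55%), near the share of all protein-coding genes. Other families with tissue-restricted use were marked less often, collagens in 22 of 44 cases, potassium channels in 36 of 95, clustered protocadherins in 14 of 53 and HOX genes in 10 of 39. Replication-dependent histone genes, which are not such a family, were marked in 36 of 64 cases (56.25%, 44.1% to 67.7%). All 10 marked HOX genes had H3K27Ac at a start, against 15 of 36 marked potassium channel genes and 3 of 14 marked protocadherin genes. Keratins were marked in 5 of 55 cases, and the 5 were KRT7, KRT8, KRT18, KRT19 and KRT80. None of the 94 keratin-associated protein genes, 40 beta-defensin genes and 17 type I interferon genes was marked, and 1 of 415 olfactory receptor genes was.

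**Figure D5:**
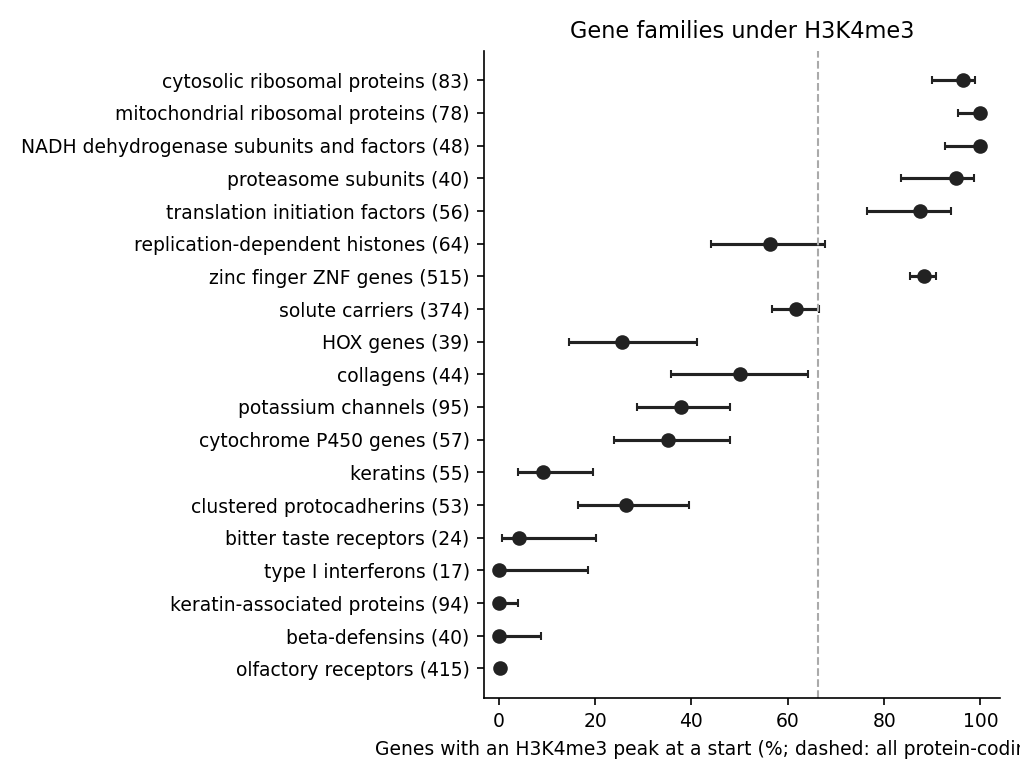
The x axis is the percentage of each gene family with an H3K4me3 peak at a start, with 95% Wilson intervals, and the number of genes is given beside each name. The dashed line is the 66.3% of all protein-coding genes. Ribosomal, NADH dehydrogenase, proteasome and ZNF genes lie above it, and keratins are at 9.09%, with defensins and olfactory receptors near 0%.

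The 12 widest H3K4me3 peaks were all at transcript starts, and a single H3K27Ac peak covered each of them whole. The widest, chr8:145003863-145028898 (hg19), was 25036 bp wide and held 9 starts of PLEC, which encodes the cytoskeletal linker plectin. The next, chr11:65654269-65671803, held starts of FOSL1, CCDC85B and FIBP. The others at protein-coding starts lay at NR2F2, an orphan nuclear receptor gene (17429 bp), LAMA5, a laminin chain gene (16035 bp), DUSP4, a phosphatase gene of the MAP kinase pathway (15840 bp), LMNA, the gene of lamins A and C (14755 bp), DCBLD2 (13135 bp), TNRC18 (12993 bp) and SPRY4, an inhibitor of receptor tyrosine kinase signalling (12968 bp). The remaining 3 held no protein-coding start. They covered starts of MIR100HG (15971 bp), NEAT1 (13352 bp) and MALAT1 (12834 bp), lncRNA genes of which NEAT1 builds paraspeckles and MALAT1 is found in nuclear speckles. Each of the 12 peaks touched 2 to 5 FAIRE peaks, and 5 touched H3K4me1. In the DCBLD2 peak H3K4me1 covered 60.0% of the bases and in the NEAT1 peak 54.6%. The MIR100HG peak was the poorest in CpG of the 12, with an observed over expected ratio of 0.177.

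Peaks over 10 kb from any start had lower scores, and 36.1% of the 2027 had a score under 100, against 1.501% of peaks at protein-coding starts. None of the other 3 lists touched 739 of them (36.5%, 34.4% to 38.6%), against 9.68% of peaks at protein-coding starts, and all 3 touched 411 (20.3%, 18.6% to 22.1%), against 13.4% of peaks at protein-coding starts. H3K4me1 touched 29.0% (27.03% to 31.0%), against 20.6% (19.9% to 21.3%) at protein-coding starts. An exon was touched by 113 of them, 782 lay in a protein-coding or lncRNA gene without touching an exon, and 1132 lay outside these. In the central 300 bases of the peaks, TGANTCA was found in 15.3% (13.8% to 17.0%) of those over 10 kb away and in 3.32% (3.02% to 3.65%) of those at protein-coding starts, and in 24.9% of the 735 far peaks that touched FAIRE. The same letters were in 24.9% of H3K27Ac, 27.3% of H3K4me1 and 39.1% of FAIRE windows of that length. FAIRE windows that touched H3K4me3 held them in 18.5% of cases and the other FAIRE windows in 44.7%. GGGCGG had the reverse order, in 39.3% of FAIRE windows with H3K4me3 and 4.14% of those without.

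The 5 widest peaks over 10 kb from a start each touched at least 1 H3K27Ac peak. The widest, chr6:106957559-106962966, was 5408 bp wide, lay in CRYBG1 26.0 kb from the nearest start, touched 1 annotated exon and had no FAIRE. The next, chr4:4764275-4769049 (4775 bp), lay in a part of STX18-AS1 without an exon, 92.3 kb from the nearest protein-coding start, that of MSX1, with 2 FAIRE peaks. That at chr3:104160282-104164858 (4577 bp) was in no protein-coding or lncRNA gene and 921 kb from the nearest protein-coding start, that of ALCAM, and H3K27Ac covered 96.1% of it. The peaks at chr3:98271178-98275718 (4541 bp) and chr7:130642505-130646945 (4441 bp) touched 2 H3K4me1 peaks each. The first of these lay 20356 bp from the start of GPR15, and the second touched an exon of the lncRNA gene LINC-PINT, 16144 bp from a start of it. The tallest FAIRE peak in these 5 regions, with a height of 123, was in the peak near GPR15. The 250 bases at its centre (chr3:98274973-98275222, plus strand) overlapped no exon, and are given for comparison with the promoters above, with CG in capitals.
Near GPR15: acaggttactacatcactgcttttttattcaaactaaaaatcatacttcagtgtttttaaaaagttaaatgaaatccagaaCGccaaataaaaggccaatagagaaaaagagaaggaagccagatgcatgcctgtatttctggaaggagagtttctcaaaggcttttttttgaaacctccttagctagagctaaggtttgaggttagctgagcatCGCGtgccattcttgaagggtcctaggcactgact
It held 3 CpG sites, and its GC content was 38.8%.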

How the data were processed

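The authors aligned reads to hg19 with BWA, removed duplicates and reads of mapping quality under 30, and called histone peaks with MACS against input and FAIRE peaks with FindPeaks. They analysed the 2 assays of each kind separately and then combined them, and only the combined lists were used here. The submitters' notes also name TopHat and HOMER. The deposited histone value is the MACS p-value as −log10 multiplied by 10. The deposited FAIRE value is a peak height in units of signal (coverage), whose scaling to depth is not given in the sources used here, and the files hold no read totals. Peak starts were read as counted from 0 and moved by 1. All 18019 H3K4me3 peaks were used. Of these, 23 on unplaced sequence were left out of distances, and no peak passed the end of its chromosome. Starts, genes and exons came from GENCODE v44lift37, and sequence from GRCh37. Overlap needed 1 shared base. Counting used numpy 2.4.6, pandas 2.3.3, pysam 0.24.0 and scipy 1.17.1, and was tested on simulated data against bedtools. No test between samples was possible. Named peaks were the 12 widest and the 5 widest over 10 kb from a start, and named genes were those with a protein-coding start in them and members of the gene lists. lncRNA genes in these peaks, family members and motifs were chosen after values were seen. The members and lists were chosen with earlier results of these data known. Some members of the lists and families are counted but not reported here by name.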

Additional observations from a re-analysis of the deposited data

How the results depend on the processing

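No paired analysis was possible because no result comes from a test and each assay has a single list from combined replicates, so no replicate could be left out either. Of 42 alternatives, 22 stayed within the interval of the reported share or median, or within 1.5 times the reported count, and 20 moved. Every count of marked protein-coding and lncRNA genes and every value on chromosomes 1 to 22 and X alone was among the 22. The limit of 1.5 times was much wider than the intervals used for shares, so the counts could hardly pass it. They ran from 12014 to 13532 protein-coding genes, with 13362 reported, and from 3645 to 4687 lncRNA genes, with 4314 reported. Chromosomes 1 to 22 and X held 17994 of the 18019 H3K4me3 peaks, so values on them could hardly move either. With H3K4me3 peaks of p at or under 1e-10, 82.8% held a start, 84.0% touched H3K27Ac, 21.2% touched H3K4me1, 7.88% were over 10 kb from a start and the median width was 2627.5 bp. A start within 1 kb was found for 79.4%. With GENCODE basic transcripts 74.5% held a start and 13.8% were over 10 kb away, and with transcripts of protein-coding genes 69.95% and 21.7%. By the centre of the H3K4me3 peak, 24.2% met FAIRE and 13.99% H3K4me1, and with at least 50% of the peak covered, 15.1% met H3K4me1. With stricter lists of the other marks, 77.3% met H3K27Ac and 11.7% H3K4me1, and 26.7% met the taller FAIRE peaks. Peaks of 2 kb or more, an alternative chosen after seeing the data, held a start in 94.4%, H3K27Ac in 93.55% and FAIRE in 51.02% of cases, and 1.99% were over 10 kb away. Depth and peak calling set which weak peaks are listed, so a gene without a peak is not shown to lack the mark.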

Other observations

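H3K4me3 peaks were unevenly spread over chromosomes, with 19.5 peaks per Mb on chromosome 19, 12.4 on chromosome 17 and 3.30 on chromosome 13. Protein-coding genes on these chromosomes numbered 1480, 1189 and 322, and similar shares of them were marked, 67.8%, 67.0% and 70.8%. Among chromosomes 1 to 22 and X, the share of protein-coding genes marked was lowest on chromosome X, at 51.4% (95% Wilson interval 48.1% to 54.8%), and highest on chromosome 3, at 72.6% (69.8% to 75.1%). Contact with H3K4me1 varied more. On chromosome 4, 39.2% of H3K4me3 peaks touched an H3K4me1 peak, against 9.0% on chromosome 19 and 9.14% on chromosome X. The H3K4me1 list itself held 2266 peaks on chromosome 4, 243 on chromosome 19 and 412 on chromosome X.

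Of the 6800 protein-coding genes without an H3K4me3 peak at a start, 350 (5.15%) had an H3K27Ac peak there, 339 (4.99%) an H3K4me1 peak and 218 (3.21%) a FAIRE peak, and 6276 (92.3%) had none of the 3.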
